A study of Homo sapiens with 12 samples.

Results

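The transcripts of 10 scavenger and phagocytic receptors were followed in induced microglia: MSR1, MARCO, COLEC12, CD36, OLR1, STAB1, CD163, MRC1, AXL and LRP1. They were chosen by name, as genes through which microglia take up modified lipoproteins, haemoglobin, glycoproteins and dying cells, and they were found by gene symbol among the 62703 genes of the deposited table. Bulk RNA-seq had been made from WTC11 iMGLs, which are microglia-like cells derived from the human induced pluripotent stem cell (iPSC) line WTC11. The WT group had 3 clones (J, K and L) and so did the LACTB KO group (A, B and C). Every clone was differentiated 2 times, for 6 libraries a genotype and 12 in all. All 6 clones were isogenic derivatives of WTC11 made at one facility by CRISPR editing, so the groups do not sample different donors. Both genotypes received the same culture, first with IL34, TGFb and MCSF and then with CX3CL1 and CD200 in addition, and no further treatment was given. LACTB is a mitochondrial serine protease-like enzyme, and the comparison asks how its loss changes the transcriptome of these cells.

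Scavenger receptors are a structurally mixed group of membrane proteins that bind modified or polyanionic ligands such as oxidised lipoproteins and carry them into the endosomal system. MSR1, MARCO and COLEC12 belong to the collagen-like class A, CD36 is a class B receptor that also takes up long-chain fatty acids, OLR1 (LOX-1) is a lectin-like receptor for oxidised LDL, and STAB1 is a large multidomain receptor. CD163 clears haemoglobin bound to haptoglobin and MRC1 (CD206) binds mannosylated glycoproteins, and both are used as markers of tissue macrophages at the borders of the brain. AXL is a receptor tyrosine kinase that recognises dying cells through the bridging protein GAS6, and LRP1 is an endocytic receptor for APOE and protease complexes.

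Libraries held 24153233 to 28406943 estimated counts. LACTB itself was at 71.6 to 98.1 CPM (counts scaled by the effective library size) in the 6 WT libraries, at 7.49 to 9.78 CPM in KO clones A and C, and at 44.4 and 51.6 CPM in KO clone B. The microglial marker CSF1R was at 1383 to 2041 CPM, P2RY12 at 61.4 to 131 CPM, CX3CR1 at 525 to 1074 CPM and TGFBR1 at 370 to 557 CPM over the 12 libraries, whereas TMEM119 was at 1.87 CPM or below in 11 of them. The summed level of 20 stromal markers ran from 56.3 to 10750 CPM in WT and from 33.2 to 1203 CPM in KO libraries. Of 17 stromal markers tested all had a lower estimate in KO, 13 with an unadjusted p under 0.05 in edgeR, against 5.56% of all genes. The summed level was 0.871 to 12.03 CPM for 10 endothelial markers, 120 to 636 CPM for 12 granulocyte and mast cell markers, 4.56 to 10.5 CPM for 9 erythroid and megakaryocyte markers and 3.66 to 16.8 CPM for 8 pluripotent and neural markers. Of the 12 granulocyte and mast cell markers, 8 were at the floor of counts given below in every library. Their sum was highest in WT clone K of differentiation 2, where most of it came from S100A9 (525 CPM) and S100A8 (93.0 CPM). It therefore does not show that granulocytes or mast cells were present.

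Expressed per kilobase of the canonical transcript, STAB1 was the most abundant receptor, with 426 ± 152 (SD, n = 6 libraries) RPKM (CPM divided by the transcript length in kilobases) in WT. It was above OLR1 (122 ± 26.2 RPKM), and OLR1 above AXL (90.1 ± 14.7 RPKM), in 12 of 12 libraries. CD163 followed at 88.5 ± 86.6 RPKM and was below AXL in 11 of 12 libraries. MSR1 (40.1 ± 42.6 RPKM), LRP1 (40.0 ± 15.3 RPKM) and CD36 (32.2 ± 9.88 RPKM) could not be put in order, because MSR1 exceeded LRP1 in 3 of 12 libraries and LRP1 exceeded CD36 in 7 of 12. MRC1 stood below them at 17.1 ± 12.4 RPKM. This place depends on the length used. Per kilobase of all annotated exons, the WT means were 28.6 for LRP1, 18.6 for MSR1, 17.1 for MRC1 and 13.6 for CD36. COLEC12 (0.983 ± 1.32 RPKM) and MARCO (0.317 ± 0.533 RPKM) were lowest, and MARCO had 3 counts or fewer in 7 of 12 libraries. The highest 3 receptors kept this order in the KO libraries, at 325 ± 45.0 RPKM for STAB1, 142 ± 24.2 RPKM for OLR1 and 95.6 ± 11.6 RPKM for AXL.

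Some of these genes share their annotated span with a neighbour (GENCODE version 44, GRCh38). LRP1 (chr12:57128483-57213361, plus strand) overlaps STAT6 on the opposite strand, which reached 295 CPM, STAB1 (chr3:52495338-52524495, plus strand) overlaps NT5DC2, which reached 235 CPM, and OLR1 (chr12:10158301-10172138, minus strand) overlaps TMEM52B, which reached 40.8 CPM. CD163 (chr12:7470811-7503893, minus strand) overlaps its family member CD163L1 on the same strand, which reached 46.9 CPM. The library kit does not mark strand, so reads from shared bases could have been assigned to either gene.

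The promoters of 7 of the 10 receptors were held in the RefSeq sequence table used (GRCh38.p14), and positions are counted from the RefSeq start. For CD163 that start lies inside the GENCODE span given above, so part of its promoter overlaps that span. The 250 bases before the start site were searched on both strands for the letters GAGGAA (bound by PU.1, the lineage factor of myeloid cells), TTGCNNAA (C/EBP), TGANTCA (AP-1) and GGGCGG (SP1). The promoters of CD163, STAB1, LRP1 and AXL are shown, each 5′ to 3′ on the strand of its gene with every match in capitals. CD163 and LRP1 are shown because their transcripts varied together over the libraries, AXL because it varied opposite to them, and STAB1 because it was the most abundant.
CD163 promoter, chr12:7503778-7504027, minus strand: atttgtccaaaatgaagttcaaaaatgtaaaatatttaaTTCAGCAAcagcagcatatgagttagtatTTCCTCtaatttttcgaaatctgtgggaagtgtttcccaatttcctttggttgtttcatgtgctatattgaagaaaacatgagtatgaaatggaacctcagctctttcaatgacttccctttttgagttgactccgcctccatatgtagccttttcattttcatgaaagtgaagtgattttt
STAB1 promoter, chr3:52495088-52495337, plus strand: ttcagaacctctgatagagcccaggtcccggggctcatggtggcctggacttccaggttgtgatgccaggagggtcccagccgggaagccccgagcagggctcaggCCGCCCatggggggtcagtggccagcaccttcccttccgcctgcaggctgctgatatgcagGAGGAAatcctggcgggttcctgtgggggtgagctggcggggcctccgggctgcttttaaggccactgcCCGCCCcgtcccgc
LRP1 promoter, chr12:57128233-57128482, plus strand: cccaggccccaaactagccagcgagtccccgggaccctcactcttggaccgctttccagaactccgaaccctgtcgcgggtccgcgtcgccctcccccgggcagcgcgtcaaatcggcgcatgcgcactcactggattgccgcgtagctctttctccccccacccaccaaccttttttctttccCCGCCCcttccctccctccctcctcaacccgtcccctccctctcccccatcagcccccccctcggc
AXL promoter, chr19:41218973-41219222, plus strand: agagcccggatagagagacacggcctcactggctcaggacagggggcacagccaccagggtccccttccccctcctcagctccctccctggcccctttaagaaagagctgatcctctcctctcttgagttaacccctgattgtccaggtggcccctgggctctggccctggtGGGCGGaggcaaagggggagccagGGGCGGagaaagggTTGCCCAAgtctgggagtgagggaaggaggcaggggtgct

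The CD163 promoter was AT-rich (33.6% G and C, against a median of 58% over all promoters of the table) and held both a C/EBP match, beginning at position -211, and a PU.1 match at position -182. STAB1 (67.6% G and C) held a PU.1 match at position -83 and 2 SP1 matches, LRP1 (67.6%) held 1 SP1 match at position -66 and no PU.1 match, and AXL (64.4%) held 2 SP1 matches and a C/EBP match at position -40. PU.1 letters were found in 3 of the 7 promoters (CD36, STAB1 and CD163) and in 23.4% of 27305 promoters of the same length. The C/EBP letters were found in 2 of 7 against 9.13%, the SP1 letters in 4 of 7 (COLEC12, STAB1, AXL and LRP1) against 42.3%, and the AP-1 letters in 0 of 7 against 6.6%. These are matches of letters in short windows and say nothing of binding.

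One library stood apart for these receptors. WT clone J in differentiation 2 was the highest of the 12 libraries for 8 of 10 receptors, while it was the highest for 17.6% of the 15530 genes that passed the filter on libraries. COLEC12 was at 21.0 CPM in this library, 5.85 times the next highest library, and MARCO was at 2.503 CPM (67 counts), 4.44 times the next. MSR1 was at 454 CPM, 4.12 times the next library, CD163 at 1073 CPM, 3.98 times the next, and MRC1 at 215 CPM, 2.35 times the next. LRP1 and CD36 were each 1.45 times their next library. A level at least 2 times that of every other library was seen in this library for 1.597% of the genes. Outside the 10 receptors, GPNMB, a lysosomal glycoprotein of lipid-laden macrophages, was at 1736 CPM (10.2 times the next), APOE at 1818 CPM (5.72 times), FOLR2 at 80.3 CPM (4.46 times), SELENOP at 491 CPM (3.83 times), VSIG4 at 978 CPM (3.13 times) and TMEM119 at 10.7 CPM (5.74 times). Some other markers of these kinds were lower there. The macrophage marker CLEC10A was at 14.0 CPM, 0.06 times the highest other library, and MS4A6A at 350 CPM, 0.65 times. CSF1R was the lowest of the 12 libraries at 1383 CPM, while CX3CR1 ranked 11 and P2RY12 10 from the highest. The summed level of 15 macrophage markers was 2939 CPM in this library and 1735 CPM in the next highest. For 16 microglia markers the sums were 10475 CPM in this library and 8913 CPM in the next highest. Its stromal sum of 854 CPM was exceeded by 3 other libraries. The genotype estimate of each receptor other than MARCO is given below with and without it. In bulk RNA, more cells of a type and more RNA per cell cannot be told apart.

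**Figure D1:**
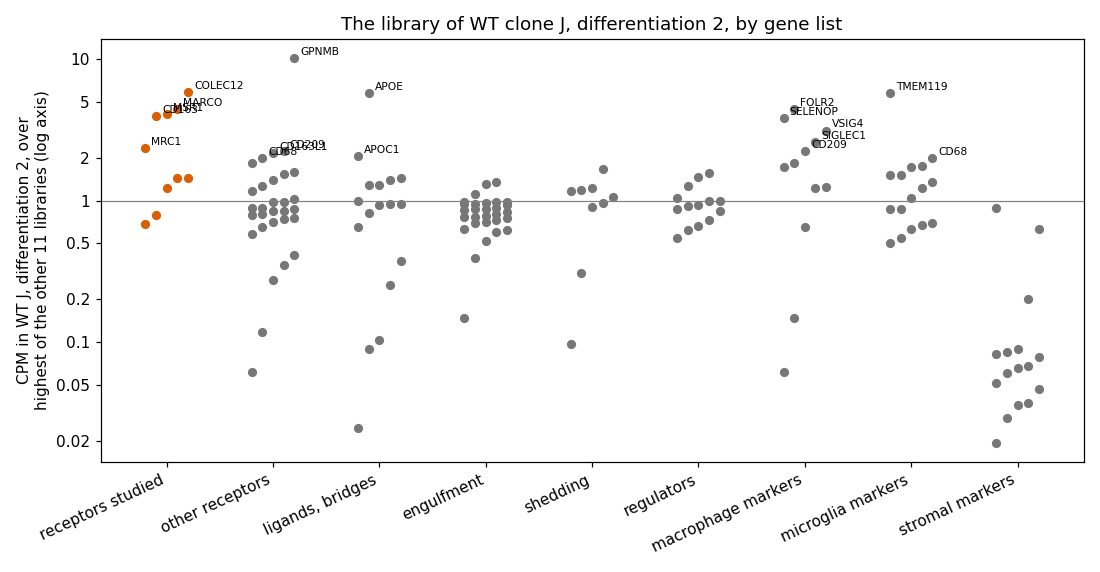
Each point is a gene with at least 1 CPM in WT clone J, differentiation 2, and its height is the level there divided by the highest level in the other 11 libraries (log axis), by gene list. Genes at 2 or more are named: 5 of the 10 receptors (orange), with COLEC12 at 5.85 and MRC1 at 2.35, while the stromal markers lie below 1.

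The genotype comparison was made on 3 KO against 3 WT clones, after the counts of both differentiations of a clone were summed. Of 10 receptors 8 had a lower and 2 a higher estimate in KO, and the median log2 fold change was -0.59 against 0.01 over the 17577 genes tested. None passed an adjusted p of 0.05 in edgeR's quasi-likelihood test, as for 0% of all genes. LACTB, the edited gene, was thus not called either, with KO clone B at 44.4 and 51.6 CPM. A lack of calls therefore does not show equal levels. At an unadjusted p under 0.05, 5 receptors were lower (MSR1, COLEC12, CD36, CD163 and LRP1) against 5.56% of all genes. All 3 KO clones lay below all 3 WT clones for 3 receptors (COLEC12, CD36 and LRP1) against 6.28% of genes, and above them for 0 receptors against 4.01% of genes. DESeq2 called 171 genes (4 higher, 167 lower) and no receptor, and had 5 receptors at an unadjusted p under 0.05 (MARCO, COLEC12, CD36, MRC1 and LRP1), all lower, against 6.14% of all genes. Without the library of WT clone J in differentiation 2, the median over 9 receptors tested was -0.19. Then 2 were lower at an unadjusted p under 0.05 (CD163 and LRP1, against 5.42% of all genes). The 3 receptors with separate clones were COLEC12, CD36 and LRP1 again (6.35% of genes). In this setting WT clone J was represented by differentiation 1 alone, while every other clone kept both. Estimates without that library, here and below, thus also differ in their balance of differentiations. When single clones were left out, the number of receptors lower at an unadjusted p under 0.05 ran from 0 to 6. It was 1 without KO clone A (MARCO, against 2.54% of all genes), 0 without KO clone B (4.52%) or C (3.28%), and 3 without WT clone J (CD36, CD163 and LRP1, 3.66%). It was 5 without WT clone K (5.90%) and 6 without WT clone L (9.01%), where OLR1 was also higher at that level. With differentiation kept as a replicate block and each library fitted on its own, edgeR left 3 (COLEC12, CD163 and LRP1, against 5.67% of all genes) and limma voom 2 (CD163 and LRP1, against 2.63%) of 9 receptors tested. In the fits on summed counts clones of one line were the replicates, so those p-values measure the spread between clones. The edgeR fit of single libraries counted the 2 libraries of a clone as separate replicates. Its p-values therefore do not measure the spread between clones. Voom took clone as a random effect, with a correlation of 0.0629 within clones that all genes shared. At that value the 2 libraries of a clone counted as nearly separate replicates there too.

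**Figure D2:**
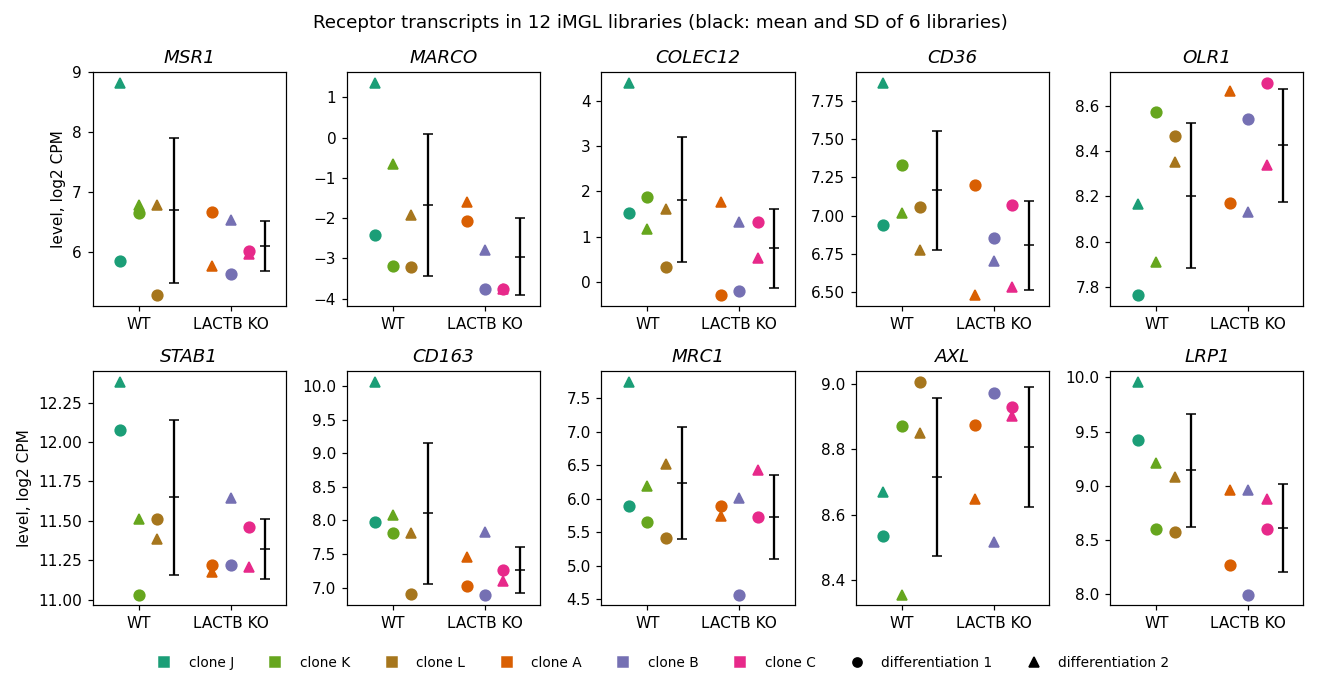
Level of each receptor (log2 CPM) in the 12 libraries, by genotype, with clones in colours, differentiation 1 as circles and differentiation 2 as triangles, and the mean and SD of 6 libraries in black. The green triangle of WT clone J is the highest point for 8 receptors, and the genotypes overlap for every receptor at the level of libraries.

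Among the class A receptors, MSR1, which takes up acetylated LDL, was at 57.6 and 454 CPM in WT clone J (differentiations 1 and 2), at 99.7 and 110 CPM in K and at 38.5 and 110 CPM in L. KO clone A was at 101 and 54.2 CPM, B at 49.2 and 92.3 CPM and C at 64.5 and 62.5 CPM. WT held both the lowest and the highest library, and the groups overlapped. The log2 fold change (KO over WT) was -1.04 ± 0.432 (SE, adjusted p = 0.777), and -0.15 without the highest library. In differentiation 2 alone the genotypes did not overlap, with 54.2 to 92.3 CPM in KO and 110 to 454 CPM in WT. In differentiation 1 the estimate had the opposite sign (0.13). The share of all genes that separate within a single differentiation is not given here. Such separations of MSR1, and of CD36 and LRP1 below, therefore describe the libraries and are not read as results about the receptors.

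COLEC12, a collectin that binds sugars of microbes, was at 2.81 and 21.0 CPM in WT clone J, at 3.59 and 2.18 CPM in K and at 1.19 and 2.99 CPM in L, against 0.746 and 3.36 CPM in KO clone A, 0.798 and 2.44 CPM in B and 2.44 and 1.38 CPM in C. Apart from the one WT library at 21.0 CPM, all libraries lay between 0.746 and 3.59 CPM. Its log2 fold change was -1.56 ± 0.650 (SE, adjusted p = 0.776) and -0.44 without that library. MARCO, a receptor for bacteria and particles, had 67, 16 and 5 counts in its 3 highest WT libraries and 7 counts or fewer in every KO library. Its fitted value of -2.77 ± 1.24 (SE, adjusted p = 0.810) rests on these few counts, and MARCO did not pass the filter when the library with 67 counts alone was left out. Without both libraries of WT clone J it was -1.32.

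CD36 was at 123 and 234 CPM in WT clone J, at 161 and 129 CPM in K and at 133 and 109 CPM in L. KO clone A had 147 and 89.0 CPM, clone B 116 and 104 CPM and clone C 134 and 92.3 CPM. Each KO clone lay below each WT clone, and the log2 fold change was -0.38 ± 0.135 (SE, adjusted p = 0.729), or -0.19 without WT clone J in differentiation 2. The separation came with differentiation 2, in which KO libraries had 89.0 to 104 CPM and WT libraries 109 to 234 CPM, while those of differentiation 1 overlapped.

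OLR1 was one of 2 receptors with a higher estimate in KO. It was at 217 and 287 CPM in WT clone J, at 381 and 240 CPM in K and at 353 and 326 CPM in L, and in KO at 288 and 406 CPM in A, at 373 and 280 CPM in B and at 417 and 324 CPM in C. The groups overlapped (log2 fold change 0.22 ± 0.122 SE, 95% interval -0.07 to 0.51, adjusted p = 0.878), and the estimate was 0.28 without WT clone J in differentiation 2. STAB1, which binds the matrix protein SPARC and modified LDL, was at 4320 and 5338 CPM in WT clone J, above every other library. The other WT libraries had 2095 and 2919 CPM in K and 2917 and 2676 CPM in L, within or near the KO range of 2314 to 3204 CPM. Its log2 fold change of -0.38 ± 0.245 (SE, adjusted p = 0.878) was -0.31 without WT clone J in differentiation 2 and -0.04 without both libraries of clone J.

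CD163 was at 251 and 1073 CPM in WT clone J, at 224 and 270 CPM in K and at 120 and 224 CPM in L. KO clone A was at 131 and 175 CPM, B at 119 and 227 CPM and C at 154 and 136 CPM. Its range was 120 to 1073 CPM in WT and 119 to 227 CPM in KO, and the genotypes overlapped in each differentiation. The log2 fold change was -1.18 ± 0.470 (SE, adjusted p = 0.760) and -0.49 without the library at 1073 CPM. MRC1 was at 59.6 and 215 CPM in WT clone J, at 50.1 and 72.6 CPM in K and at 42.5 and 91.4 CPM in L, against 59.1 and 53.5 CPM in A, 23.6 and 64.7 CPM in B and 52.7 and 86.3 CPM in C. The genotypes overlapped in both differentiations, and the log2 fold change was -0.64 ± 0.329 (SE, adjusted p = 0.874), or -0.13 without that library.

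AXL had the estimate closest to 0 of the 10 receptors. WT clone J had 370 and 407 CPM, K 468 and 327 CPM and L 515 and 462 CPM, and in KO there were 469 and 401 CPM in A, 503 and 366 CPM in B and 488 and 478 CPM in C. The log2 fold change was 0.09 ± 0.110 (SE, adjusted p = 0.903), with a 95% interval from -0.17 to 0.35, and 0.11 without WT clone J in differentiation 2. LRP1 was at 685 and 995 CPM in WT clone J, at 389 and 591 CPM in K and at 381 and 543 CPM in L, and at 308 and 498 CPM in KO clone A, 255 and 499 CPM in B and 388 and 469 CPM in C. Within each differentiation LRP1 was lower in KO, with no overlap in differentiation 2 (469 to 499 CPM against 543 to 995 CPM) and with overlap of 1 KO clone in differentiation 1. The log2 fold change was -0.55 ± 0.227 (SE, adjusted p = 0.772), -0.42 without WT clone J in differentiation 2 and -0.23 without clone J. An exact two-sided permutation test over clones gave p = 0.1 for COLEC12, CD36 and LRP1, the smallest value that 3 against 3 clones allow.

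**Figure D3:**
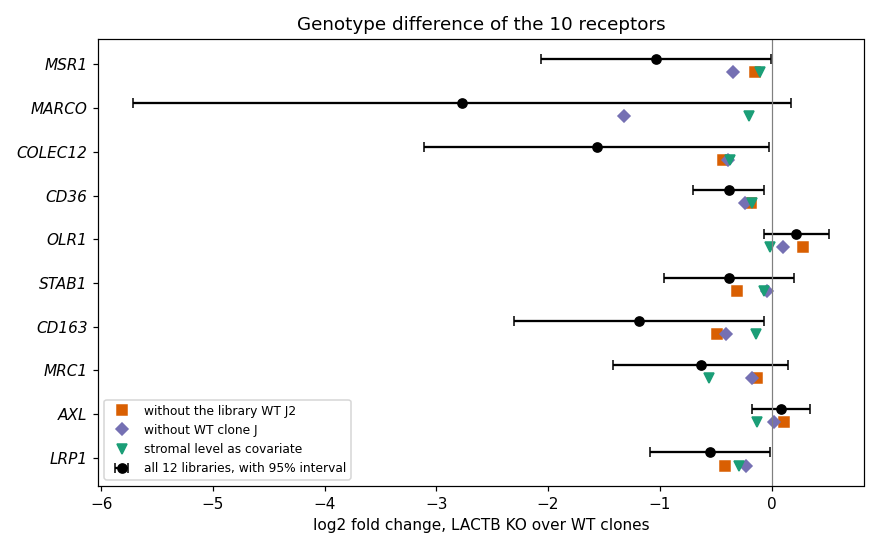
Log2 fold change (KO over WT clones) of each receptor with its 95% interval (black), and the estimates without the library WT J2, which is WT clone J in differentiation 2, without WT clone J, and with the stromal level as covariate. MSR1 goes from -1.04 to -0.15 and COLEC12 from -1.56 to -0.44 without WT J2, while AXL and OLR1 stay within 0.3 of 0.

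The stromal marker level moved with genotype, and most receptor estimates changed when it was taken into the fit. With the mean log2 CPM of the stromal markers as a covariate, all 10 receptors had an estimate below 0 with a median of -0.15, and 0 had an unadjusted p under 0.05 in edgeR. CD163 was then at -0.14, MSR1 at -0.10 and LRP1 at -0.30, and the estimates of OLR1 (-0.0131) and AXL (-0.13) changed sign. COLEC12 was at -0.37, and MRC1 changed little, from -0.64 to -0.56. The SE was wider in this fit, with 0.610 against 0.432 for MSR1, 1.11 against 0.650 for COLEC12 and 0.579 against 0.329 for MRC1. The count of 0 at that level thus cannot be read from the estimates alone. AXL was lowest in WT K2 (327 CPM), KO B2 (366 CPM) and WT J1 (370 CPM), where the digit is the differentiation, and these are the 3 libraries with the highest stromal level. OLR1 was lowest in WT J1 (217 CPM), WT K2 (240 CPM) and KO B2 (280 CPM), the same 3 libraries. Their stromal sums were 10750 CPM in WT J1, 5632 CPM in WT K2 and 1203 CPM in KO B2. The part of stromal cells in the levels of AXL and OLR1 was not tested.

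**Figure D4:**
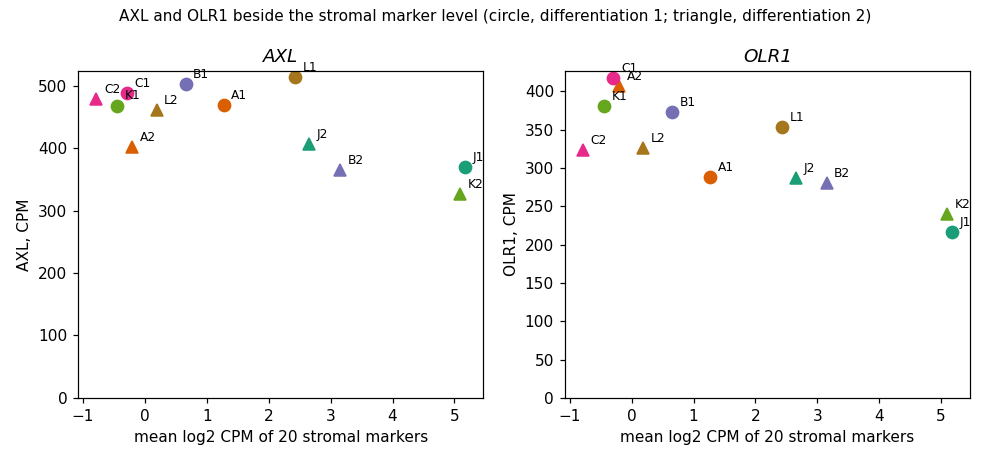
Level of AXL (left) and OLR1 (right), in CPM, against the mean log2 CPM of 20 stromal markers in each of the 12 libraries, labelled by clone and differentiation. The 3 libraries with the highest stromal level (J1, K2 and B2) hold the 3 lowest values of both receptors.

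Differentiation 2 was compared with differentiation 1 within the 6 clones, for the 9 receptors that passed the filter on libraries. In edgeR 3 of them were higher in differentiation 2 at an unadjusted p under 0.05 (LRP1, MRC1 and CD163) against 6.07% of 15530 genes, and none had an adjusted p under 0.05 in either direction, as for 0% of genes. LRP1 was higher in differentiation 2 in 6 of 6 clones, a pattern that 3.66% of genes shared, and 0 receptors were lower in all clones (2.76% of genes). DESeq2 called 303 genes (230 higher and 73 lower) and with them LRP1 (adjusted p = 5.65e-08) and MRC1 (adjusted p = 0.00155). Clones were the replicates in these fits, so the p-values measure how far the difference varied over clones. The labels call the differentiation a batch, and the spread between further differentiations is not measured.

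LRP1 went from 685 to 995 CPM in WT clone J, from 389 to 591 CPM in K and from 381 to 543 CPM in L, and from 308 to 498 CPM in KO clone A, from 255 to 499 CPM in B and from 388 to 469 CPM in C. The log2 fold change (differentiation 2 over 1) was 0.60 ± 0.0884 (SE, unadjusted p = 0.00014, adjusted p = 0.0963) and lay between 0.52 and 0.66 when each clone was left out. Without the expression filter edgeR gave LRP1 an adjusted p of 0.0052. MRC1 was higher in 5 of 6 clones (log2 fold change 0.92 ± 0.237 SE, adjusted p = 0.286), going from 23.6 to 64.7 CPM in KO clone B and from 42.5 to 91.4 CPM in WT clone L. CD163 was higher in 5 of 6 clones as well (0.73 ± 0.261 SE, adjusted p = 0.404), and COLEC12 (1.09, adjusted p = 0.573) and MSR1 (0.73, adjusted p = 0.665) in 4 of 6. When WT clone J was left out, the estimate was 0.73 for MRC1, 0.47 for CD163, 0.69 for COLEC12 and 0.32 for MSR1. MSR1 had a log2 fold change of -0.0020 in the KO clones alone. CD36 was lower in 5 of 6 clones (-0.19), with WT clone J the exception, and AXL was lower in 5 of 6 clones with the same exception (-0.21 ± 0.0938 SE, adjusted p = 0.522).

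**Figure D5:**
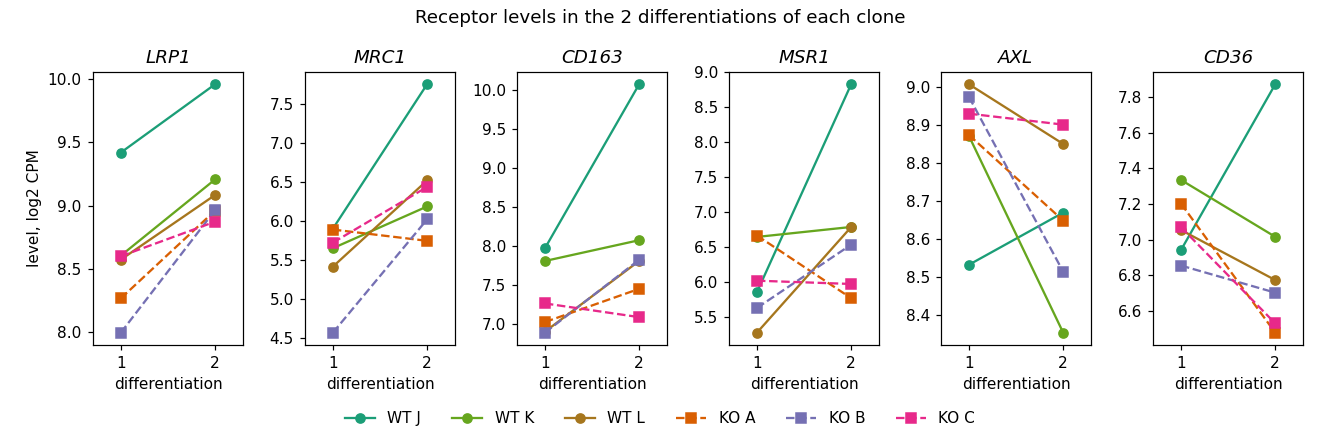
Levels (log2 CPM) of 6 receptors in differentiations 1 and 2, with a line per clone (solid, WT; dashed, KO). All 6 lines rise for LRP1, 5 of 6 for MRC1 and CD163, and 5 of 6 fall for AXL and CD36, where WT clone J goes up.

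The interaction of genotype and differentiation had an adjusted p of 0.999 for each of the 9 receptors in edgeR, with 0% of genes called, and DESeq2 called 0 genes too. At an unadjusted p under 0.05 edgeR had 82 genes with a positive and 59 with a negative interaction. No receptor had an unadjusted p under 0.05. The estimate farthest from 0 was that of MSR1 (-1.56 ± 0.768 SE, unadjusted p = 0.0821), whose WT clones J and L stepped up in differentiation 2.

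CD163 and LRP1 varied together over the 12 libraries (Pearson r of log2 CPM 0.86, or 0.79 without WT clone J in differentiation 2). CD163 and COLEC12 had r = 0.93 (0.78 without that library), and MRC1 and LRP1 0.84 (0.71). AXL ran opposite to CD163 (r = -0.51, and -0.79 without that library) and to LRP1 (-0.64 and -0.73), and it went with OLR1 (0.70 and 0.70). CD36 lost its relation to MSR1 (0.71) and CD163 (0.65) once the library was left out (0.26 and 0.04). These correlations are descriptions over libraries that share clones, differentiation and stromal content.

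The genes with levels most like each receptor, by Pearson r of log2 CPM over 12 libraries differed between receptors. CD163 was closest to FUCA1, a lysosomal fucosidase (r = 0.99, 0.97 without WT clone J in differentiation 2), then to NRP1 (0.98) and MGLL (0.98), a monoacylglycerol lipase. MSR1 was closest to ATP6V1H, a subunit of the proton pump of lysosomes (0.97, 0.90 without it), CTSZ (0.96), a lysosomal protease, and CHIT1 (0.95), the macrophage chitotriosidase. CD36 was closest to NR1H3 (0.96, 0.92 without it), the oxysterol receptor LXRα, then to ARHGAP10 (0.93) and MED11 (0.92). LRP1 was closest to PLA2G4C (0.97), MLF1 (0.97) and NOTCH2NLA (0.96), the last of which has near-identical copies that reads may not separate. MRC1 was closest to TBCEL (0.97), PCYOX1 (0.95) and the macrophage elastase MMP12 (0.95), and COLEC12 to CYB561A3, PSME4 and CPM (carboxypeptidase M), each at 0.96.

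STAB1 was closest to CEMP1 (0.95), NISCH (0.95) and CARD14 (0.94), and NISCH lies 2.27 kb from STAB1 on chromosome 3. OLR1 was closest to the actin regulator WASF2 (0.94), the clathrin adaptor PICALM (0.94) and FANCM (0.93). AXL was closest to KNTC1 (0.95), a kinetochore protein, to CEP152 (0.92), a centriole protein, and to SAAL1 (0.90). With OLR1 and AXL the correlation of the closest gene was as high without WT clone J in differentiation 2 (0.96 for both).

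Other genes of the uptake pathway were read from lists of receptors, ligands, engulfment proteins, sheddases and regulators. No gene of these lists had an adjusted p under 0.05 in edgeR, by genotype or by differentiation. At an unadjusted p under 0.05, 5.56% of all genes were lower in KO, or 5.42% without WT clone J in differentiation 2. The counts by genotype for these lists and for the markers below stand against those shares. Of 45 other receptors 38 were tested by genotype, with 26 estimates below 0, 9 of them at an unadjusted p under 0.05, none above 0 at that level, and a median of -0.22 (7 of 36 and -0.14 without WT clone J in differentiation 2). The 3 with the smallest p were the lipoprotein receptor VLDLR (log2 fold change -2.19, 0.720 ± 0.453 CPM in KO and 3.33 ± 2.74 CPM in WT, SD, n = 6 each), PLA2R1 (-2.47) and SSC5D (-3.45). Of 18 ligands and bridging molecules 17 had an estimate below 0 (median -0.36, or -0.12 without that library) and 3 an unadjusted p under 0.05. Among them were MFGE8 (-1.03), which bridges phosphatidylserine to integrins, and the STAB1 ligand SPARC (-3.22). SPARC was highest in WT clone J of differentiation 1 (1707 CPM), as were MFGE8 (47.5 CPM) and VLDLR (7.44 CPM), and SSC5D (10.5 CPM) and PLA2R1 (3.88 CPM) were highest in WT clone K of differentiation 2. These are the 2 libraries with the highest stromal marker level, whose part in these estimates was not tested.

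The 29 engulfment proteins tested had a median of 0.06, with 23 estimates above 0 and 2 below at an unadjusted p under 0.05. Those were the adaptor BCAR1 (-1.56) and the RAC activator DOCK1 (-1.13), followed by PIK3CD (0.18), and BCAR1 was highest (8.005 CPM) in WT clone J of differentiation 1, the library with the highest stromal level. Without WT clone J in differentiation 2 the median was 0.08 and 2 were below 0 at that level. Of 9 sheddases and their inhibitors 8 were below 0 (median -0.09) and 1, the inhibitor TIMP3 (-2.96), had an unadjusted p under 0.05, with TIMP2 (-0.39) and FURIN (-0.13) next. TIMP3 was highest (82.0 CPM) in that same stromal-rich library, and without WT clone J in differentiation 2 the median was -0.03 with 1 gene under 0.05. None of 14 regulators had an unadjusted p under 0.05 (median -0.02, or 0.02 without WT clone J in differentiation 2), and those with the smallest p were the lysosomal regulator TFEB (0.25), NR1H3 (-0.50) and MAF (-0.26). Of the 13 macrophage markers tested 11 were below 0 (median -0.50), 4 at an unadjusted p under 0.05 (1 of 12 and a median of -0.18 without WT clone J in differentiation 2), led by CD209 (-1.23), SELENOP (-1.45) and FOLR2 (-1.62). The 16 microglial markers had a median of -0.06 (0.01 without WT clone J in differentiation 2), and 1 was under 0.05 (TMEM119, -2.02), followed by CD68 (-0.70) and P2RY12 (0.34).

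By differentiation, 35 other receptors were tested and 4 were higher in differentiation 2 at an unadjusted p under 0.05 (median 0.06). Of all genes 6.07% were higher at that level, and the counts of the other lists here stand against the same share. Among the 4 receptors CD14, the co-receptor for lipopolysaccharide, had a log2 fold change of 0.66 ± 0.121 (SE, adjusted p = 0.186), and CD300LF had 0.36. CD14 was higher in 6 of 6 clones, as were 3.66% of genes. All 12 macrophage markers tested had an estimate above 0 (median 0.44), 2 at an unadjusted p under 0.05, with C1QA (0.32), MS4A4A (0.44) and SIGLEC1 (0.69) at the smallest p. Their estimates include WT clone J in differentiation 2, the library with the highest macrophage marker sum, and are not given here without it. Of 29 engulfment proteins 4 were higher at that level, with PIK3CG (0.23), DOCK1 (0.57) and RAC2 (0.32) at the smallest p, and medians of the ligands (0.04), sheddases (0.04) and regulators (-0.01) were close to 0.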

How the data were processed

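Per the labels and methods, polyA RNA of WTC11 iMGLs was sequenced with a kit that does not mark strand. The authors trimmed the paired reads and used STAR and hg38 for alignment, and what they deposited are estimated counts for each gene, unscaled between libraries. Columns of WT libraries carry the paper's abbreviation for scrambled controls, and the sample labels were followed. The counting tool is not given in the sources used here. Of the values 10.8% to 11.5% per library were not whole, so the estimated counts were rounded, where the plan had assumed whole counts. The 10 receptors and all gene lists were chosen with earlier results of these data known.

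KO and WT clones were compared on counts summed per clone with edgeR 4.0.16 in R 4.3.3 (TMM, filterByExpr, quasi-likelihood test, Benjamini-Hochberg adjustment over 17577 genes, threshold 0.05). The study's mixed model could not be run, and limma 3.58.1 (voom, clone as random effect) and DESeq2 1.42.0 were alternatives. Differentiation and its interaction with genotype were fitted on 12 libraries with clone as a fixed effect (15530 genes). CPM used TMM library sizes, log2 CPM a prior count of 2, and 3 counts were taken as the floor. The main edgeR fits of genotype, differentiation and interaction were tested on simulated data that held no clone effect and no outlying library.

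All receptors are named, the 3 genes of each list with the smallest p in each comparison, and the 3 genes most correlated with each receptor of at least 1 CPM on average. Some genes that this rule names are not reported here. Genes named for the library of WT clone J in differentiation 2, such as GPNMB, APOE and VSIG4, and for overlap with a receptor were chosen after their values were seen. The labels call the differentiation a batch, which pairs libraries across genotypes: deviations of same-numbered libraries had a mean correlation of 0.0363 over 18 pairs (-0.499 to 0.606). Leaving out WT clone J in differentiation 2 was chosen after seeing the data. Other alternatives were size factors, no filter, each clone left out, each differentiation or genotype alone, no WT J1 and K2, and a stromal covariate.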

Additional observations from a re-analysis of the deposited data

Results flagged for a closer look

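In 5 of 20 groups of 6 libraries (10 receptors in 2 genotypes), 1 library lay far from the others by Dixon's test at 95%. For normally distributed values chance alone gives this in about 1 of 20 groups. The test was made on CPM, and the share of all genes that it flags in these libraries is not given here. In each of the 5 groups the library was WT clone J in differentiation 2, so the 5 are not independent. The levels there were 454 CPM for MSR1, 2.503 CPM for MARCO, 21.0 CPM for COLEC12, 1073 CPM for CD163 and 215 CPM for MRC1.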

How the results depend on the processing

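Of the alternatives for single receptors, 159 genotype estimates, 102 differentiation estimates and 74 interaction estimates kept their direction and side of the threshold. By genotype the direction turned for MSR1 in differentiation 1 alone (0.13), AXL without the libraries WT J1 and K2 (-0.0145), and OLR1 (-0.0131) and AXL (-0.13) with the stromal covariate. By differentiation it turned for CD36 in WT clones alone (0.10), MSR1 in KO clones alone (-0.0020) and OLR1 without WT clone K (0.00066, range over clones left out -0.22 to 0.00066). For the interaction it turned with a clone left out for COLEC12 (-1.20 to 0.71), AXL (-0.23 to 0.10), OLR1 (-0.26 to 0.30) and LRP1 (-0.0675 to 0.28). Genes called by genotype numbered 0, but 2 without the filter, 171 in DESeq2 and 0 to 1 with a clone left out (1 without WT clone L and 1 without KO clone B). By differentiation they numbered 0, but 80 without the filter, of them 1 receptor (LRP1), 303 in DESeq2, of them 2 receptors, 10 in KO clones alone, 1 with the stromal covariate and 0 to 50 with a clone left out (50 without WT clone J). The causes were not tested. With the replicate block edgeR and limma voom each called 0 genes by genotype, and no other call changed. With 3 clones per genotype a difference had to exceed the spread between clones, and MARCO had 3 counts or fewer in 7 of 12 libraries.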
